A study of Mus musculus with 24 samples.

Results

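Transcripts of 32 genes that encode chaperones, folding enzymes, degradation factors and sensors of the endoplasmic reticulum (ER) were followed in tissues of mice without Prxl2a, the gene of a peroxiredoxin-like protein. The genes were picked by symbol as textbook components or targets of the unfolded protein response. The choice was made with earlier results of these data known, so their shares beside those of all genes are descriptions. All 32 genes were present among the 19015 genes of the expression table. They were compared between Prxl2a knockout (KO) and wildtype (WT) female mice of 12 weeks, with 3 KO and 3 WT libraries from each of 4 tissues: liver, brain, the inguinal fat depot (IAT) and the dorsal brown fat depot (BAT). The mice were fed normally and perfused with PBS before the tissues were frozen, per the labels' protocols. The sources used here give neither the strain nor the kind of Prxl2a allele. With 3 mice named per group, libraries of different tissues may share animals, and nothing in the labels ties them to one another. These are bulk samples, in which fewer cells of a type and less RNA per cell cannot be told apart.

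Secreted and membrane proteins are folded in the ER by lumenal chaperones, oxidised by disulfide isomerases and, where folding fails, returned to the cytosol for degradation. When unfolded protein accumulates, the sensors IRE1, ATF6 and PERK switch on the unfolded protein response, in which spliced XBP1 and cleaved ATF6 raise the transcription of chaperone and degradation genes and PERK slows translation. Hepatocytes secrete most plasma proteins and carry an extensive rough ER.

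Among the 32 genes, 30 had a higher level in KO livers than in WT livers, and the largest differences were in chaperone cofactors, secreted stress proteins and degradation factors: Sdf2l1, Creld2, Manf, Hyou1, Syvn1 and Derl3. None of the 32 passed an adjusted p of 0.05 with edgeR's quasi-likelihood test in any tissue. In liver, Sdf2l1 came nearest to that threshold (edgeR adjusted p = 0.0552), and 12 of the genes passed with DESeq2. Manf, Hyou1 and Syvn1 were not among these 12. In IAT, BAT and brain, fold changes of both signs were more evenly mixed, with medians of 0.09, 0.07 and 0.08 on the log2 scale, against 0.40 in liver. The difference between tissues did not pass for any of the 32.

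Depth was even within each tissue but not between tissues. BAT was lowest, at 12327459 to 12948149 counts per library, and the libraries of the other tissues held 15788266 to 18257788. Markers went with the tissue labels: 12 hepatocyte genes summed to 130087 to 161905 TPM (transcripts scaled to gene length and library) in liver and at most 5827 TPM elsewhere, and 10 neuron genes to 7248 to 9140 TPM in brain and at most 16.6 TPM elsewhere. In IAT and BAT 10 adipocyte genes summed to 37594 to 99068 TPM, and 10 brown adipocyte genes to 15419 to 21088 TPM in BAT and at most 696 TPM elsewhere. As a check of the genotype labels, Prxl2a averaged 1.55 CPM (counts scaled to the library total) in KO livers and 78.5 CPM in WT livers. It averaged 16.3 CPM in KO and 390 CPM in WT for IAT, 22.4 CPM in KO and 492 CPM in WT for BAT, and 5.74 CPM in KO and 104 CPM in WT for brain. Of the libraries, IAT KO replicates 1 and 3 were rich in lymphocyte transcripts and IAT WT replicates 1 and 2 in skeletal muscle transcripts, so the IAT results that rest on them are also given without them. CPM values here were normalised within each tissue by the trimmed mean of M-values (TMM).

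The promoters of these genes are known for ER stress response elements. Sequences from 250 bases before to 50 bases after the transcription start were taken from RefSeq (GRCm38.p6) for 26 of the 32 genes. Hspa13, Hyou1, Manf, Derl1, Atf6 and Sec61a1 had no entry and are named only. The elements searched, on both strands, were ERSE (CCAAT, then any 9 bases, then CCACG), ERSE-II (ATTGG, then any 1 base, then CCACG) and the core of the UPRE (TGACGTG). ERSE stood in 9 of the 27 promoters of these genes (33.3%; Derl2 has a pair of start sites), against 39 of all 32851 promoters (0.119%). ERSE-II stood in 2 of the 27 (7.41%), against 12 of all promoters (0.0365%), and the UPRE core in 1 of the 27 (3.70%), against 2.01% of all promoters. The CCACG that ERSE and ERSE-II share stood, inside or outside such an element, in 21 of the 27 promoters (77.8%), against 32.8% of all promoters. The counts over all promoters include these 27. The genes were picked in part as targets of the unfolded protein response, so these shares describe the list and test nothing. Such a match is a description of letters, and a promoter without one lacks only these letters in this window. The 250 bases before the start of Hspa5 and of Creld2 are shown because Hspa5 holds both an ERSE and the UPRE core, and because Creld2 had one of the largest differences in KO livers. The coordinates are of GRCm38.p6, each sequence runs 5′ to 3′ along the strand of its gene, and capitals mark the matched elements.
Hspa5, chr2:34771840-34772089, plus strand: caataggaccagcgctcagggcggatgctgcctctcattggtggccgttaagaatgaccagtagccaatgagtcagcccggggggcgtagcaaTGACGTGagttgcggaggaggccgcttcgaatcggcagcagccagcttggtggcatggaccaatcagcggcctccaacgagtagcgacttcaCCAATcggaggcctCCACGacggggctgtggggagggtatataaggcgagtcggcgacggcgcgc
Creld2, chr15:88819396-88819645, plus strand: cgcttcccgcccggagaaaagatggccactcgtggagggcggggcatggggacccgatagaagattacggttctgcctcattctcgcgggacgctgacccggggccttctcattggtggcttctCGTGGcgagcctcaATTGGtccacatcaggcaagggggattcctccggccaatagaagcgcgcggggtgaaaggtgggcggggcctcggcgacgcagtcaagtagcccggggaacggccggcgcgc
The ERSE of Hspa5 began 65 bases before the start and its UPRE core 157 bases before it. In Creld2 the ERSE began 126 bases before the start and lay on the opposite strand, so that CGTGG comes before ATTGG.

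For the other genes with an ERSE or ERSE-II, the 30 bases around 1 element each are shown to let the shared letters and the variable spacer be compared. Hsp90b1 held 2 ERSE, of which the one farther from the start is given.
Hsp90b1, chr10:86705632-86705661, minus strand: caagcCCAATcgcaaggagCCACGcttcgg
Calr, chr8:84847069-84847098, minus strand: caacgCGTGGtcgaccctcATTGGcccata
Canx, chr11:50325794-50325823, minus strand: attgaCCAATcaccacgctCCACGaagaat
Pdia6, chr12:17266486-17266515, plus strand: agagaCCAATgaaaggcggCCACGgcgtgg
Dnajc3, chr14:118937822-118937851, plus strand: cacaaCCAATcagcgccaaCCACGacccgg
Syvn1, chr19:6046527-6046556, plus strand: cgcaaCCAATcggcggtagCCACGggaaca
Derl3, chr10:75893237-75893266, plus strand: tctacCGTGGgacttccccATTGGctagcc
Dnajb11, chr16:22857843-22857872, plus strand: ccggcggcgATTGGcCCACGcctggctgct
Herpud1, chr8:94386368-94386397, plus strand: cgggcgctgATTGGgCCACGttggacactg
In Calr and Derl3 the ERSE was again on the opposite strand. The ERSE-II of Dnajb11 began 8 bases after the start and that of Herpud1 began 52 bases before it.

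Liver was compared first. Of the 32 genes, all tested, 30 had a positive fold change in KO livers and 2 a negative one, against 49.0% of the 12331 genes tested with a positive one. Their median log2 fold change was 0.40, and that of all genes tested was -0.00. With edgeR, 0 of the 32 passed an adjusted p of 0.05, against 1.11% of all genes (0.576% higher and 0.535% lower in KO). At an unadjusted p of 0.05, 22 of the 32 differed and all 22 were higher in KO, where 7.27% of all genes were higher and 8.86% lower at that limit. DESeq2 called 12 higher and 0 lower at an adjusted p of 0.05, against 1.55% higher and 1.71% lower of all genes, and limma-voom called 0. Every KO library lay above every WT library for 24 of the 32 genes, against 10.6% of all genes, and every KO library lay below for 0, against 11.0%. On the TPM scale, which normalises within each library without TMM, the count of genes with no overlap was 12 above and 2 below, against 4.42% and 19.1% of all genes on that scale, and 26 of the 32 had a positive fold change. The median of all genes shifted to -0.07 on that scale, and 30 of the 32 lay above it. The 12 genes above there were Hspa5, Hspa13, Hyou1, Calr, Pdia4, Dnajb11, Sdf2l1, Creld2, Manf, Syvn1, Derl3 and Ssr1. From here on, overlap of KO and WT libraries is described on the CPM scale unless TPM is named. A log2 fold change of at least 0.5 was seen for 14 of the 32, against 2.99% of all genes.

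**Figure D1:**
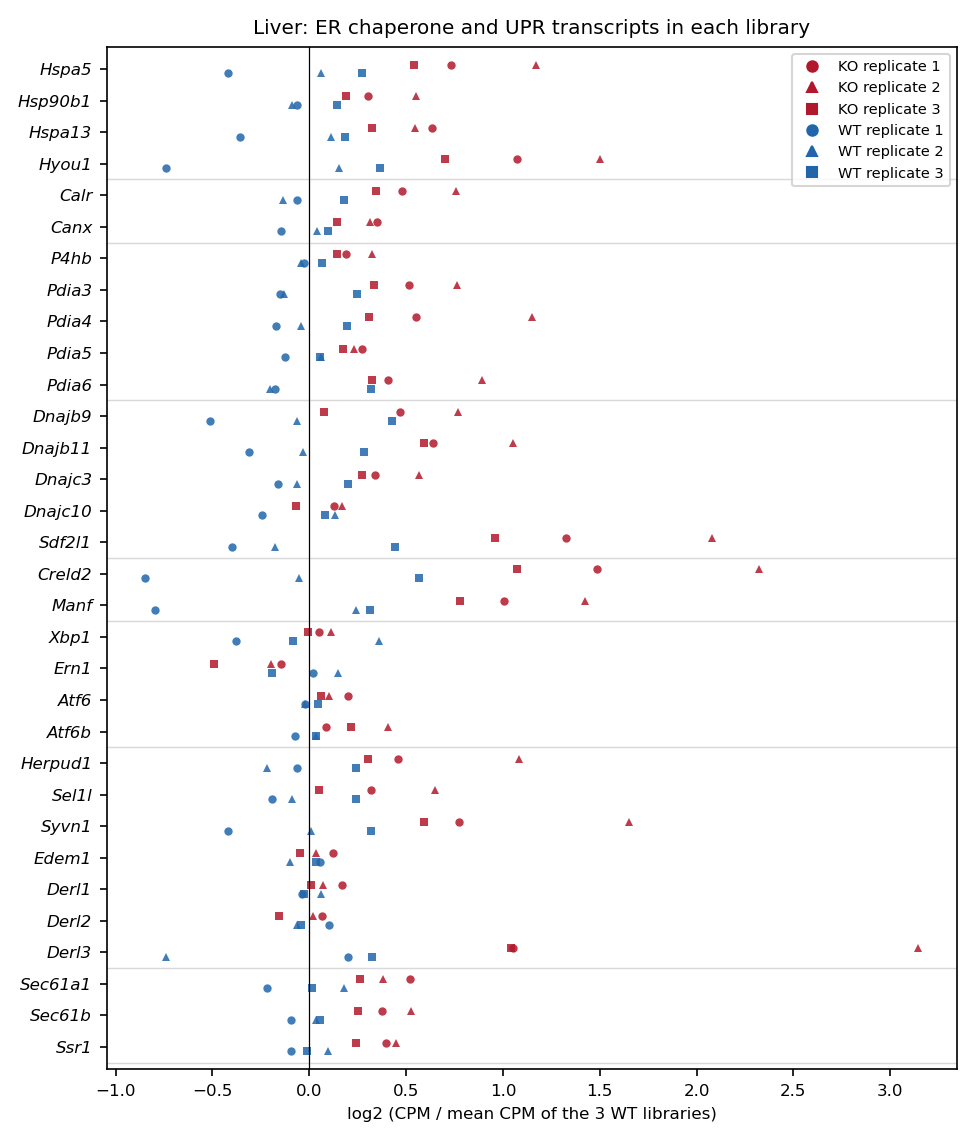
Level of each of the 32 genes in each liver library, as log2 of its CPM over the mean CPM of the 3 WT libraries, with genes grouped by role (KO in red, WT in blue, 1 symbol per replicate). KO replicate 2 was the highest library for 22 genes and WT replicate 1 the lowest for 22.

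The libraries of a group did not stand alike. KO replicate 2 was the highest of the 6 liver libraries for 22 genes and KO replicate 1 for 7, while WT replicate 1 was the lowest for 22 genes and WT replicate 2 for 8. Relative to the tissue mean, the median over the 32 genes on the log2 scale was 0.17, 0.38 and 0.06 in KO replicates 1, 2 and 3, against -0.36, -0.25 and -0.07 in WT replicates 1, 2 and 3. Without KO replicate 2, 30 of the 32 still had a positive fold change, 18 had an unadjusted p under 0.05 and the median log2 fold change was 0.32. Without WT replicate 1, 29 had a positive fold change, 18 had an unadjusted p under 0.05 and the median was also 0.32.

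Hspa5 (gene 14828, GRCm38.p6 chromosome 2, 34772090 to 34776529) encodes BiP, the ER Hsp70 that binds unfolded chains and holds the stress sensors inactive. Its level was 1243, 1688 and 1091 CPM in the KO livers, against 560, 782 and 906 CPM in the WT livers. All KO livers lay above all WT livers, and WT replicate 1 was the lowest by a wide margin. The log2 fold change was 0.84 (SE 0.21, edgeR adjusted p = 0.103), which passed with DESeq2 (adjusted p = 0.000842). Hyou1, the large Hsp70-related protein that exchanges nucleotide on BiP, stood at 256, 345 and 198 CPM in KO livers and at 72.8, 136 and 157 CPM in WT livers. Its groups did not overlap, and its log2 fold change was 1.13 (SE 0.28, edgeR adjusted p = 0.103; DESeq2 adjusted p = 0.0715). Hsp90b1, which encodes GRP94, stood 0.36 higher on the log2 scale (SE 0.13). Hspa13, an atypical microsomal Hsp70, stood 0.51 higher (SE 0.15), and neither gene overlapped. Hspa13 passed with DESeq2 (adjusted p = 0.0471), and Hsp90b1 did not.

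Lectin chaperones and disulfide isomerases also had higher values in KO livers. Calr, the lumenal lectin calreticulin, stood at 759, 920 and 691 CPM in KO livers, against 521, 496 and 618 CPM in WT livers. The groups were apart, with a log2 fold change of 0.54 (SE 0.13, edgeR adjusted p = 0.107; DESeq2 adjusted p = 0.00565). Its membrane-bound relative Canx had a log2 fold change of 0.27 (SE 0.10). Among the 5 disulfide isomerases, which form and shuffle disulfide bonds, every one had all KO livers above all WT livers on the CPM scale. On the TPM scale only Pdia4 did. The log2 fold changes ran from 0.22 for P4hb to 0.71 for Pdia4. Pdia4 was at 203, 308 and 172 CPM in KO livers, against 123, 135 and 159 CPM in WT livers, so KO replicate 3 lay close to WT replicate 3. With DESeq2, Pdia3 (adjusted p = 0.0110), Pdia4 (adjusted p = 0.00966) and Pdia6 (adjusted p = 0.0498) passed, while P4hb and Pdia5 did not.

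Cochaperones held the gene with the smallest p. Sdf2l1 (gene 64136, chromosome 16, 17130138 to 17132383) encodes a lumenal protein found in complexes with BiP and the J proteins. It stood at 23.1, 39.0 and 17.9 CPM in KO livers and at 6.99, 8.15 and 12.5 CPM in WT livers. Each KO liver exceeded each WT liver, and KO replicate 2 was highest. The log2 fold change was 1.53 (SE 0.30, edgeR adjusted p = 0.0552; DESeq2 adjusted p = 3.05e-06), and without KO replicate 3 it passed in edgeR as well (adjusted p = 0.0318). Over all alternatives its adjusted p ran from 3.05e-06 to 0.169. Dnajb11, the J protein ERdj3 that delivers clients to BiP, had 117, 156 and 114 CPM in KO livers, against 60.8, 73.8 and 91.6 CPM in WT livers. KO replicates 1 and 3 were alike and all KO livers were above the WT range, with a log2 fold change of 0.78 (SE 0.17, edgeR adjusted p = 0.0738; DESeq2 adjusted p = 0.000563). Dnajc3, also known as p58IPK, had a log2 fold change of 0.40 (SE 0.12) with no overlap. For Dnajb9, the J protein ERdj4, it was 0.46 (SE 0.23), and for Dnajc10, the disulfide reductase ERdj5, it was 0.08 (SE 0.12), and in both genes the groups overlapped.

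Creld2 and Manf encode small ER proteins that can be secreted under stress. Creld2 (gene 76737, chromosome 15, 88819646 to 88826681) stood at 70.1, 125 and 52.7 CPM in KO livers and at 13.9, 24.1 and 37.0 CPM in WT livers. No WT liver reached the lowest KO liver. The log2 fold change was 1.72 (SE 0.38, edgeR adjusted p = 0.0788; DESeq2 adjusted p = 0.0474). Manf, a neurotrophic factor that also binds BiP, stood at 148, 199 and 127 CPM in KO livers, against 42.6, 87.4 and 92.0 CPM in WT livers. WT replicate 1 was far below the other WT livers. The log2 fold change was 1.09 (SE 0.27, edgeR adjusted p = 0.103; DESeq2 adjusted p = 0.0964).

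Sensors and transcription factors of the response had log2 fold changes between -0.27 and 0.24. Xbp1, whose spliced messenger encodes the main transcription factor of the IRE1 branch, was at 191, 199 and 184 CPM in KO livers, against 142, 237 and 174 CPM in WT livers. All KO livers fell inside the WT range, and the log2 fold change was 0.05 (SE 0.16, edgeR adjusted p = 0.915). The table gives 1 value per gene, so spliced and unspliced Xbp1 were not separated. Ern1, which encodes the sensor IRE1α, had 14.2, 13.7 and 11.1 CPM in KO livers and 15.9, 17.4 and 13.7 CPM in WT livers. Its log2 fold change was -0.27 (SE 0.13, edgeR adjusted p = 0.354), and KO replicate 1 was the only KO liver above the lowest WT liver. Atf6, the membrane-bound sensor cleaved under stress, had 83.4, 78.1 and 75.6 CPM in KO livers, against 71.5, 71.5 and 74.9 CPM in WT livers. Its relative Atf6b had 16.8, 20.9 and 18.4 CPM in KO livers, against 15.0, 16.2 and 16.2 CPM in WT livers. In both, the KO livers lay just above the WT livers, with log2 fold changes of 0.12 (SE 0.07) for Atf6 and 0.24 (SE 0.11) for Atf6b.

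Genes of ER-associated degradation split into those with large differences and those with almost none. Syvn1 encodes HRD1, the ubiquitin ligase of the retrotranslocation complex. It was at 97.3, 179 and 85.9 CPM in KO livers, against 42.5, 57.3 and 71.0 CPM in WT livers. KO livers were all higher, with a log2 fold change of 1.08 (SE 0.28, edgeR adjusted p = 0.110; DESeq2 adjusted p = 0.134). Herpud1, the membrane protein HERP that joins the same complex, was at 804, 1239 and 722 CPM in KO livers and at 560, 503 and 690 CPM in WT livers. The groups were separate by a narrow gap, and the log2 fold change was 0.66 (SE 0.21, edgeR adjusted p = 0.165; DESeq2 adjusted p = 0.0220).

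Derl3, a derlin of the retrotranslocation channel that is typical of secretory cells, had the largest log2 fold change of the 32, 2.11 (SE 0.65, edgeR adjusted p = 0.158; DESeq2 adjusted p = 0.0126). It rested on low counts, 22 to 93 per KO library and 7 to 13 per WT library. KO replicate 2 reached 5.34 CPM, while KO replicates 1 and 3 had 1.25 and 1.24 CPM, against 0.69, 0.36 and 0.76 CPM in WT livers. Without KO replicate 2 the log2 fold change was 1.06 (edgeR adjusted p = 0.306). The adjusted p of Derl3 ran from 0.0126 to 0.359 over all alternatives. Its relatives Derl1 and Derl2 and the mannosidase-like Edem1 had log2 fold changes of 0.09, -0.02 and 0.04, each with overlap. Sel1l, the adaptor of HRD1, was between these extremes at 0.36 (SE 0.16), also with overlap.

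The translocon genes showed small differences with little spread. Ssr1, a subunit of the translocon-associated complex, had 131, 136 and 118 CPM in KO livers, against 93.6, 107 and 99.1 CPM in WT livers. Its groups were well apart for so small a difference, with a log2 fold change of 0.36 (SE 0.09, edgeR adjusted p = 0.0957; DESeq2 adjusted p = 0.0347). Sec61a1 and Sec61b, which encode the pore and the beta subunit of the Sec61 channel, each had a log2 fold change of 0.39 with no overlap.

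Grouped by promoter, the 11 genes with an ERSE or ERSE-II all had a positive log2 fold change in KO livers, from 0.27 for Canx to 2.11 for Derl3, with a median of 0.66. All 11 had an unadjusted p under 0.05, as had 7 of the 15 genes with a promoter and neither element, 4 of the 6 genes without a promoter sequence and 7.27% of all genes, all of these higher in KO. The 15 genes with a promoter and neither element had a median of 0.24, with 13 positive, and ran from -0.27 for Ern1 to 1.53 for Sdf2l1. The 6 genes without a promoter sequence had a median of 0.45. Elsewhere among the RefSeq promoters, 38 further genes carried an ERSE or ERSE-II, of which 15 were tested in liver. Their median was -0.05, with 7 positive and 8 negative, and at an unadjusted p of 0.05, 3 were higher and 1 was lower. No test was made between these groups.

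**Figure D2:**
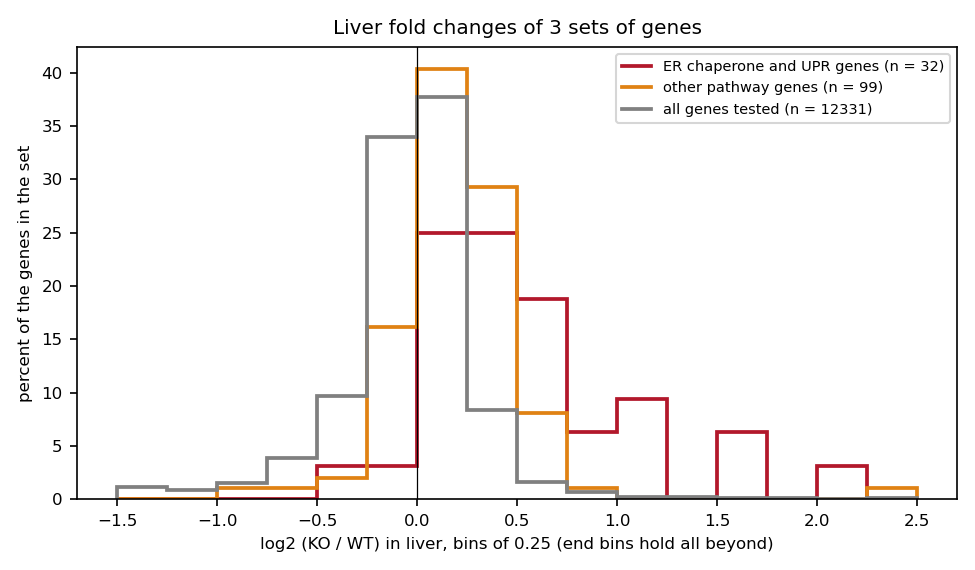
Distribution of log2 fold changes of KO over WT in liver, as the percent of each set in bins of 0.25, for the 32 ER chaperone and UPR genes, 99 other tested genes of ER folding, translocation and degradation, and all 12331 genes tested. The medians were 0.40, 0.19 and -0.00.

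The wider pathway was read from 103 other genes of ER folding, glycosylation, translocation and degradation. Of these, 99 were tested in liver and 79 had a positive fold change, against 49.0% of all genes. Their median log2 fold change was 0.19. With edgeR, 3 rose and 0 fell at an adjusted p of 0.05, against 0.576% and 0.535% of all genes. DESeq2 called 14 higher and 0 lower, against 1.55% and 1.71% of all genes. Ube2g2, an E2 ubiquitin-conjugating enzyme of ER-associated degradation, rose by a log2 fold change of 0.80 (SE 0.11; edgeR adjusted p = 0.0112), with 48.9, 49.7 and 44.4 CPM in KO livers, against 23.7, 27.6 and 30.9 CPM in WT livers. Srprb, a subunit of the signal recognition particle receptor, rose by 0.68 (SE 0.12, edgeR adjusted p = 0.0384). Sec24d, a cargo adaptor of COPII vesicles that leave the ER, rose by 0.58 (SE 0.10, edgeR adjusted p = 0.0413). Of 16 alternatives, Ube2g2 lost its call in 2, without WT replicate 2 (edgeR adjusted p = 0.0604) and with all 24 libraries in 1 fit (edgeR adjusted p = 0.0520). Srprb lost it in 7, with an adjusted p of up to 0.107, and Sec24d in 9, with an adjusted p of up to 0.386. Both lost it in edgeR without any 1 of WT replicates 1, 2 and 3 or KO replicates 1 and 2. The count of called genes depended on single libraries: without WT replicate 2 it was 0 and without KO replicate 3 it was 4. Without any 1 of WT replicates 1 and 3 or KO replicates 1 and 2 it was 1.

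Bhlha15, a transcription factor of secretory cells that is a target of XBP1, was at 1.03, 1.61 and 0.62 CPM in KO livers, against 0.23, 0.15 and 0.17 CPM in WT livers. This was a log2 fold change of 2.50 (SE 0.50), the largest of the 99, and it did not pass (edgeR adjusted p = 0.0565). It rested on low counts, above all in the WT livers. The genes of the PERK branch named here had log2 fold changes from -0.56 to 0.56. For Atf4, its transcription factor, the log2 fold change was 0.05 (SE 0.07), and for Eif2ak3, which encodes PERK itself, 0.28 (SE 0.26). Ddit3, which encodes the stress factor CHOP, was at 6.89, 13.4 and 8.42 CPM in KO livers and at 6.82, 6.35 and 6.23 CPM in WT livers, a log2 fold change of 0.56 (SE 0.23, edgeR adjusted p = 0.264). Trib3 (0.04, SE 0.21) and Chac1 (-0.56, SE 0.45), targets of ATF4 and CHOP, did not pass either. Bhlha15 and the PERK genes are named here after their values were seen.

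Markers of other cells were read in the same liver libraries. The summed TPM of 12 hepatocyte markers overlapped, at 130087 to 155577 in KO livers and 136517 to 161905 in WT livers. Plasma cells, which have an abundant ER, were followed with 9 markers. Their sum also overlapped, at 131 to 156 TPM in KO livers and 122 to 150 TPM in WT livers. Nearly all of that sum was Sdc1, at 121 to 149 TPM in KO livers and 114 to 147 TPM in WT livers. Jchain stood at 4.33 to 8.17 TPM in KO livers and at 1.82 to 6.05 TPM in WT livers. Mzb1, Tnfrsf17, Irf4 and Prdm1 stayed under 1 TPM, so the sum mostly followed Sdc1. A list of 10 cholangiocyte and stellate cell markers summed to 53.2 to 65.8 TPM in KO livers, against 116 to 177 TPM in WT livers. All 10 of its genes had a negative fold change, 3 fell at an adjusted p of 0.05 with edgeR, and 0 were at 0 in all libraries. Of 11 mammary epithelium markers, 5 were tested and 1 fell. Their sum was 254 to 286 TPM in KO livers, against 288 to 367 TPM in WT livers, with Krt5, Krt14, Csn3 and Csn2 at 0 in every liver library. The neuron list stood at 2.51 to 3.46 TPM in KO livers and at 3.60 to 4.37 TPM in WT livers, with 4 of its 10 genes at 0. The part of these lists in the liver difference was not tested.

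In IAT, all 32 genes were tested and 0 passed with edgeR, where no gene of the tissue did (0%). DESeq2 called Derl3 alone, against 3.01% of all genes called higher and 3.99% lower, and limma-voom called 0. The median log2 fold change was 0.09, with 21 positive and 11 negative values (background 51.7% positive), and that of all 14097 genes was 0.02. At an unadjusted p of 0.05, 2 of the 32 were higher, against 7.75% of all genes, and 0 were lower, against 8.04%. Every KO library lay above every WT library for 3 genes (background 8.81%) and below for 1 (background 9.65%).

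Derl3 was at 3.17, 0.88 and 1.33 CPM in KO IAT and at 0.20, 0.23 and 0.30 CPM in WT IAT. Each KO library was above each WT library, on 14 to 56 counts per KO library and 3 to 5 counts per WT library. The log2 fold change was 2.85 (SE 0.61, edgeR adjusted p = 0.214; DESeq2 adjusted p = 0.00761). It was 2.15 without KO replicate 1 (edgeR adjusted p = 0.448), and 3.16 without KO replicate 2, where it passed (edgeR adjusted p = 0.0217). That omission left only the lymphocyte-rich KO replicates 1 and 3, and 1760 of the 14593 genes then tested passed. With KO replicates 1 and 3 left out together, an alternative that leaves KO replicate 2 alone in its group and lends it the spread of the WT libraries, the log2 fold change was 1.84. The adjusted p of Derl3 in IAT ran from 0.00620 to 0.809 over all alternatives.

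Plasma cell and lymphocyte transcripts moved with Derl3 in part. The 18 lymphocyte markers summed to 3252, 13.1 and 1614 TPM in the KO libraries, against 27.8, 39.4 and 28.8 TPM in the WT libraries, with none at 0 throughout. The 9 plasma cell markers summed to 551, 68.9 and 303 TPM in KO, against 59.0, 87.2 and 90.3 TPM in WT. Mzb1, a plasma cell and B cell ER protein, was at 30.3, 0.32 and 14.4 CPM in KO and at 0.26, 0.23 and 0.42 CPM in WT. Jchain, from the same list, was at 350, 12.8 and 175 CPM in KO and at 12.5, 11.3 and 2.81 CPM in WT. KO replicate 2 thus had Mzb1 at the WT level and Jchain just above it. Its Derl3, at 0.88 CPM on 14 counts, was above the WT libraries. Of the 7 plasma cell markers tested, which did not include Mzb1, 4 were higher and 3 lower in KO. The lower ones were Irf4, Tnfrsf17 and Sdc1, with log2 fold changes of -0.59, -0.54 and -0.03, and in each the groups overlapped. The part of these cells in the Derl3 difference was not tested.

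**Figure D3:**
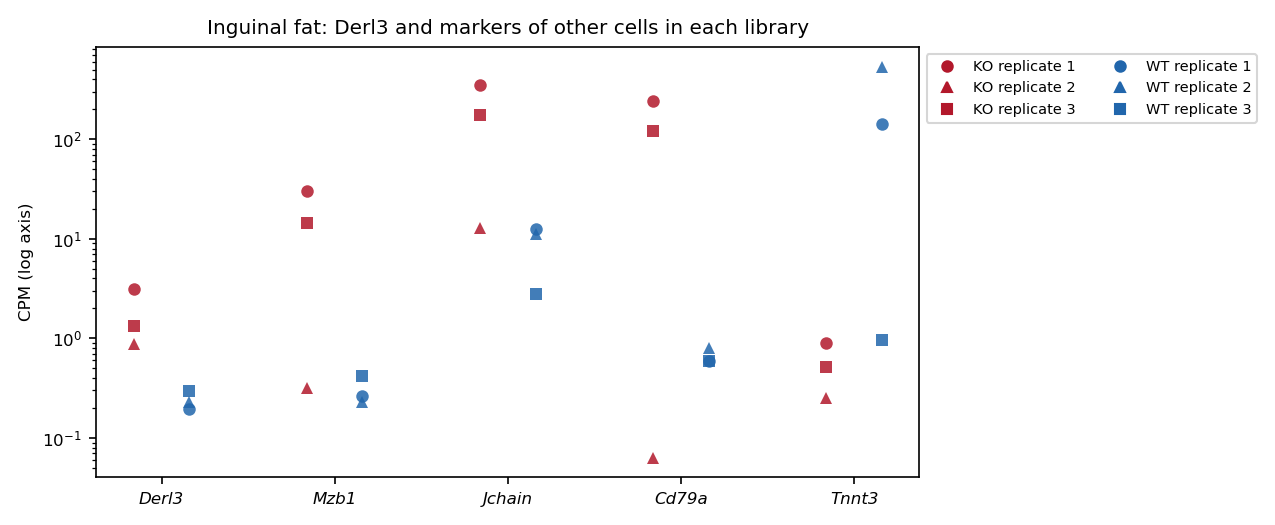
CPM on a log axis of Derl3, the B cell and plasma cell markers Mzb1, Jchain and Cd79a, and the muscle marker Tnnt3 in each IAT library (KO in red at left of each pair, WT in blue at right). KO replicates 1 and 3 had 14.4 to 30.3 CPM of Mzb1, and KO replicate 2 had 0.32 CPM.

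The other IAT genes with the smallest p had modest differences. Syvn1 was at 86.7, 72.9 and 78.6 CPM in KO, against 64.3, 62.4 and 62.4 CPM in WT, with no overlap and a log2 fold change of 0.33 (SE 0.12, edgeR adjusted p = 0.286). Atf6b was at 55.4, 46.0 and 46.6 CPM in KO, against 35.6, 41.2 and 45.2 CPM in WT, again with all KO libraries higher. Its log2 fold change was 0.28 (SE 0.15). For the next 3 genes the groups overlapped. Hyou1 was at 102, 108 and 105 CPM in KO and at 65.2, 76.8 and 104 CPM in WT, a log2 fold change of 0.35 (SE 0.19). Pdia4 was at 141, 170 and 159 CPM in KO and at 92.3, 115 and 161 CPM in WT, also 0.35 (SE 0.23). For these 2 genes WT replicate 3 matched the KO libraries, and WT replicates 1 and 2 were lower. Derl1, a derlin with broad expression, was at 219, 295 and 240 CPM in KO, against 409, 266 and 295 CPM in WT, a log2 fold change of -0.36 (SE 0.22).

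WT replicates 1 and 2 of IAT carried skeletal muscle transcripts. The 15 muscle markers summed to 20.3, 52.0 and 37.8 TPM in KO, against 1747, 6412 and 10.6 TPM in WT. With these WT libraries left out together, so that WT replicate 3 stood alone, the median log2 fold change of the 32 genes was -0.22, with 4 positive and 28 negative. Without WT replicate 1 only, it was -0.03. The direction of the median in IAT therefore rested on WT replicate 1.

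In BAT, 31 of the 32 genes were tested, since Derl3 had only 1 to 3 counts per library. None passed with edgeR, DESeq2 or limma-voom, where edgeR called 0.540% of all genes and DESeq2 2.36% higher and 1.76% lower. The median log2 fold change was 0.07, with 19 positive and 12 negative (background 49.0% positive), and turned to -0.04 on the log2(TPM + 1) scale, where the median of all genes was -0.09. At an unadjusted p of 0.05, 4 genes were higher and 4 lower in KO, against 9.91% and 8.60% of all genes. Every KO library lay above every WT library for 4 genes (background 14.3%) and below for 4 (background 11.3%).

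Hspa5 was at 512, 495 and 552 CPM in KO BAT, against 455, 415 and 414 CPM in WT BAT, a log2 fold change of 0.28 (SE 0.08, edgeR adjusted p = 0.160). Hyou1 was at 77.4, 89.3 and 98.3 CPM in KO, against 73.5, 66.2 and 70.6 CPM in WT, a log2 fold change of 0.33 (SE 0.10). Derl1 was at 246, 292 and 274 CPM in KO, against 242, 187 and 204 CPM in WT, a log2 fold change of 0.36 (SE 0.12). In these 3 genes all KO libraries were above all WT libraries. Of the 6 degradation genes tested in BAT, 3 were higher in KO (Derl1, Derl2 and Syvn1) and 3 were lower. Syvn1, like Derl1, had all KO libraries above all WT libraries, with a log2 fold change of 0.17 (SE 0.08). Herpud1 was at 119, 93.7 and 89.7 CPM in KO, against 144, 133 and 120 CPM in WT, a log2 fold change of -0.39 (SE 0.13, edgeR adjusted p = 0.187). Sel1l was at 66.8, 71.5 and 70.3 CPM in KO, against 81.1, 77.5 and 82.5 CPM in WT, a log2 fold change of -0.21 (SE 0.07). Edem1 was at 61.3, 56.2 and 57.3 CPM in KO, against 72.6, 64.4 and 67.3 CPM in WT, a log2 fold change of -0.22 (SE 0.08). All KO libraries were below all WT libraries for these 3 genes. The cholangiocyte and stellate list, which holds fibroblast genes, summed to 76.9 to 88.8 TPM in KO BAT, against 129 to 197 TPM in WT BAT, and WT replicate 1 held 2548 TPM of muscle markers. The part of either in these values was not tested.

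In brain, all 32 genes were tested, and 0 passed with edgeR, DESeq2 or limma-voom, where edgeR called 0.0487% of all genes and DESeq2 0.188% higher and 0.195% lower. The median log2 fold change was 0.08, with 21 positive and 11 negative (background 49.6% positive). At an unadjusted p of 0.05, 3 were higher, against 3.43% of all genes, and 0 were lower, against 3.14%. All KO libraries were above all WT libraries for 4 genes (background 6.53%) and below for 1 (background 5.99%).

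Ern1 had the smallest p in brain. It was at 6.85, 6.22 and 6.78 CPM in KO brains, against 4.79, 4.77 and 4.06 CPM in WT brains. The KO brains lay close together and above the WT brains, with a log2 fold change of 0.54 (SE 0.16, edgeR adjusted p = 0.717). Hspa5 was at 393, 341 and 329 CPM in KO and at 268, 275 and 321 CPM in WT, a log2 fold change of 0.30 (SE 0.11). Dnajc3 was at 95.2, 81.4 and 79.6 CPM in KO and at 68.5, 72.0 and 77.2 CPM in WT, a log2 fold change of 0.23 (SE 0.10). Neither overlapped, although KO replicate 3 and WT replicate 3 were close. Sec61b was the 1 gene with all KO brains lower, at 6.35, 8.99 and 7.72 CPM in KO, against 9.22, 9.19 and 11.8 CPM in WT, a log2 fold change of -0.39 (SE 0.18). Atf6 was at 123, 142 and 123 CPM in KO, against 93.7, 131 and 73.2 CPM in WT, and Dnajb11 at 65.4, 64.7 and 60.4 CPM in KO, against 54.4, 56.2 and 61.6 CPM in WT. Both overlapped, with log2 fold changes of 0.38 (SE 0.20) for Atf6 and 0.15 (SE 0.08) for Dnajb11. Brain libraries also differed in the regions they held: the choroid plexus list summed to 15.3 to 638 TPM in KO and 118 to 2202 TPM in WT, and the striatum list to 317 to 1262 TPM in KO and 413 to 1978 TPM in WT.

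**Figure D4:**
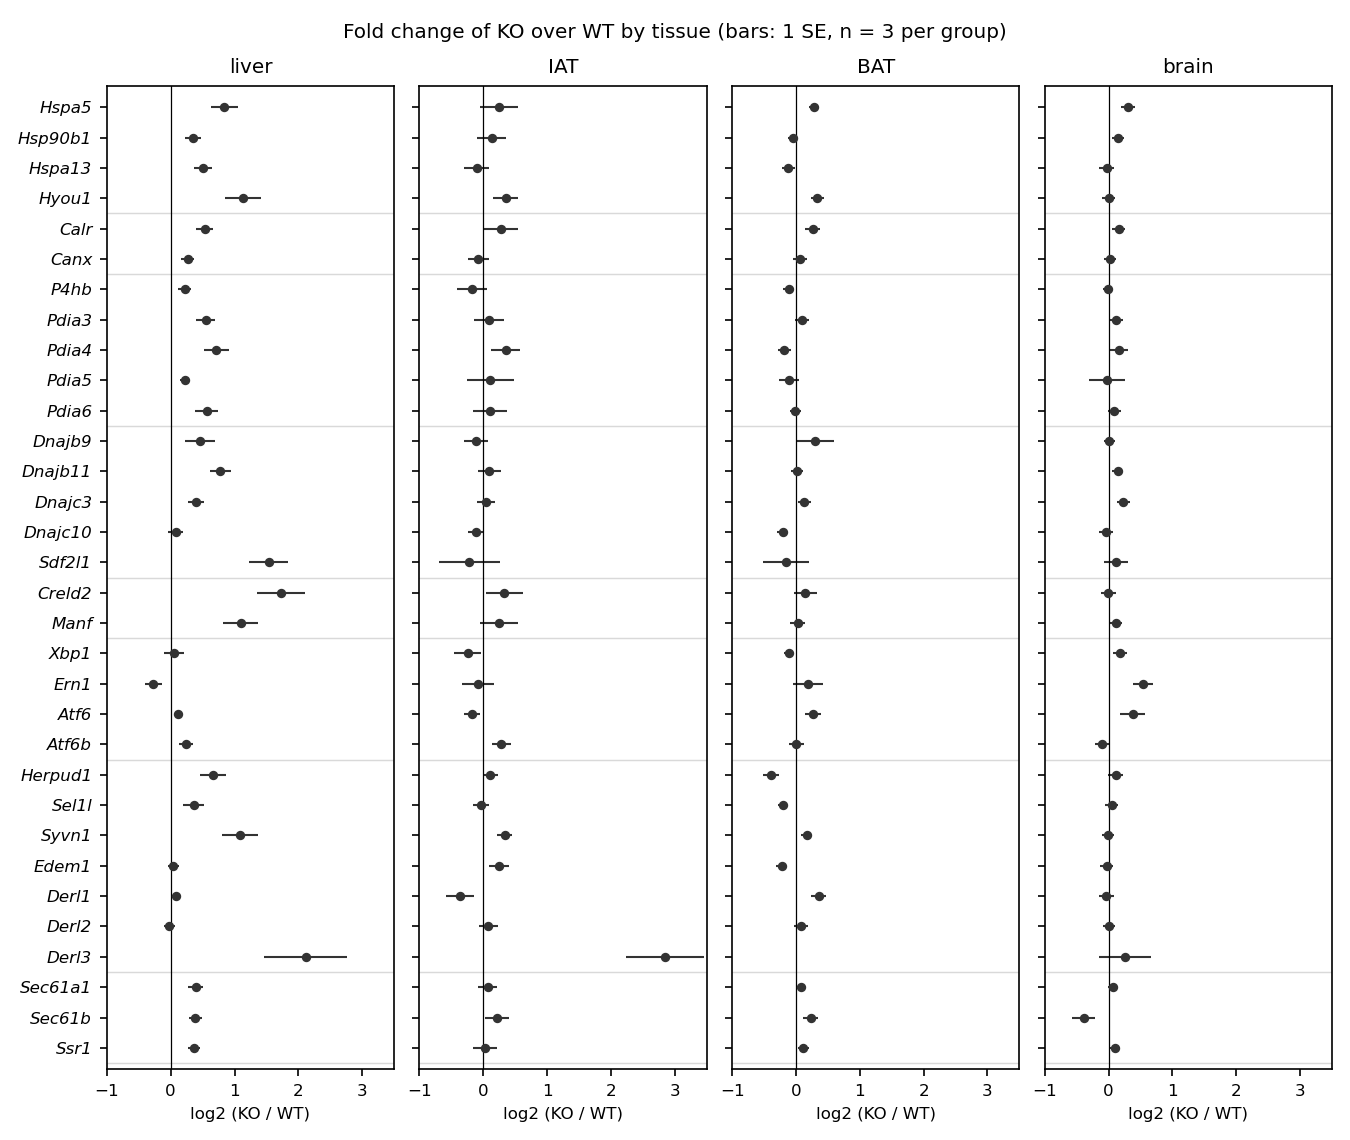
Log2 fold change of KO over WT for each of the 32 genes in liver, IAT, BAT and brain, with bars of 1 SE (n = 3 libraries per group), and genes grouped by role. Most liver values lie to the right of 0 (30 of 32), and in the other tissues they lie on both sides. Derl3 has no BAT value.

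Whether the KO difference itself varied between tissues was tested in 1 edgeR fit of all 24 libraries, with an F-test of the genotype by tissue interaction. None of the 32 genes passed, where 0.421% of the 16169 genes tested did. At an unadjusted p of 0.05, 13 of the 32 differed, against 18.9% of all genes. The smallest adjusted p belonged to Creld2 (0.0966), followed by Herpud1 (0.103), Syvn1 (0.107) and Dnajb11 (0.126). For Creld2 the log2 fold changes were 1.72 in liver, 0.33 in IAT, 0.15 in BAT and -0.01 in brain. Syvn1 had 1.08 in liver, 0.33 in IAT, 0.17 in BAT and -0.01 in brain. Without IAT KO replicate 2, 7 of the 32 passed. That omission raised the share of all genes that passed to 18.1%. A liver difference is therefore not shown to be particular to liver for any of these genes in the full set of libraries. Opposite non-overlap, with every KO library above every WT library in 1 tissue and below in another, was found for 3 of the 32 genes on the CPM scale (Herpud1, Sec61b and Atf6), against 5.35% of all genes. On the TPM scale it was also found for 3 (Herpud1, Pdia4 and Ern1), against 5.22% of all genes.

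The levels of the 32 genes in WT mice give the scale of these differences, and TPM, which accounts for gene length, allows genes to be compared. All 32 differed between the 4 WT tissues with edgeR at an adjusted p of 0.05, where 96.1% of all genes did. By mean TPM, 13 genes were highest in liver, 12 in brain, 7 in IAT and 0 in BAT, and 24 were lowest in BAT. This order can depend on the scale. Dnajb9, highest in brain by TPM, averaged 76.5 CPM in WT liver and 53.2 CPM in WT brain, with CPM normalised within each tissue. Summed over the 32 genes, the level was 5097 to 7158 TPM in KO livers, against 3771 to 4974 TPM in WT livers. The sums overlapped elsewhere, at 3698 to 4201 TPM in KO IAT and 2923 to 4242 TPM in WT IAT, 1815 to 1966 TPM in KO BAT and 1833 to 1926 TPM in WT BAT, and 3176 to 3612 TPM in KO brain and 2963 to 3287 TPM in WT brain.

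In WT liver the most abundant of the genes were P4hb at 681 ± 32.1 TPM (SD, n = 3), Herpud1 at 496 ± 78.6 TPM, Hspa5 and Hsp90b1 at 471 TPM each (SD 118 for Hspa5 and 42.0 for Hsp90b1) and Calr at 467 ± 54.3 TPM. Herpud1 in WT liver was above every other WT tissue, where its means were 109 TPM in BAT, 84.5 TPM in IAT and 82.3 TPM in brain. Hspa5 was 359 ± 105 TPM in WT IAT, 296 ± 31.9 TPM in WT brain and 258 ± 17.1 TPM in WT BAT, and each tissue overlapped its neighbour in this order. Brain had the highest levels of Sel1l (79.9 ± 4.09 TPM), Dnajc10 (62.9 ± 2.85 TPM), Atf6b (55.8 ± 6.56 TPM) and Atf6 (31.8 ± 8.80 TPM), with no overlap with the next tissue. Derl3 was the least abundant in each WT tissue, at 1.62 ± 0.56 TPM in brain, 0.83 ± 0.25 TPM in liver, 0.34 ± 0.06 TPM in IAT and 0.23 ± 0.12 TPM in BAT. For the 3 genes with the largest liver fold changes, Creld2 averaged 103 TPM in KO livers and 33.7 TPM in WT livers, Sdf2l1 44.2 TPM in KO livers and 16.4 TPM in WT livers, and Derl3 3.43 TPM in KO livers and 0.83 TPM in WT livers.

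**Figure D5:**
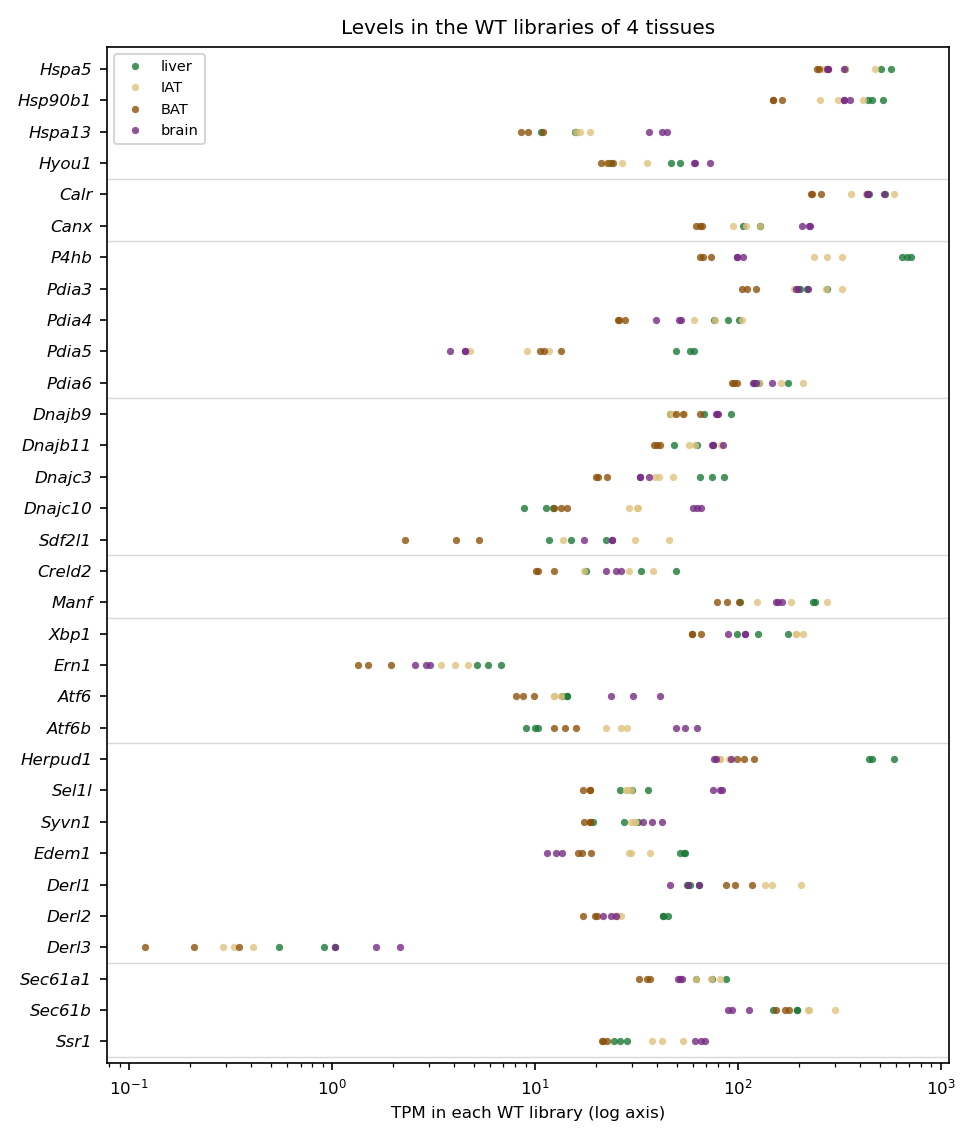
TPM on a log axis of the 32 genes in each of the 12 WT libraries, coloured by tissue and grouped by role. BAT points (brown) are the lowest for 24 genes by mean, and Derl3 is below 3 TPM in every WT library.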

How the data were processed

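The authors deposited 1 table with RSEM expected counts per gene and library, not normalised, and with TPM values made within each library, per the file headers. The submitters' processing notes name RSEM 1.3.1, Bowtie2 2.3.4.3, DESeq2 1.4.5 and the build GRCm38.p6. Annotation, filters and strandedness of counting are not given there. The 48 FPKM and normalised count columns were left aside.

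Whole numbers were made from the expected counts by rounding. Each tissue's 6 libraries were fitted alone with edgeR 4.0.16 in R 4.3.3 (TMM factors, filterByExpr, quasi-likelihood F-test of KO against WT), and p-values were adjusted by Benjamini-Hochberg over all genes tested. Standard errors come from the F statistic. A gene was called under an adjusted p of 0.05. Interaction between genotype and tissue used all 24 libraries, and WT tissues were compared over 12 WT libraries. DESeq2 1.42.0 and limma 3.58.1 were alternatives, with other filters and scalings, TPM with a pseudocount of 1 or 0.1 for genes with a mean of at least 1 TPM, the replicate number as a block, and each library left out. The fits were tested on simulated data. No pair of replicates matched within sampling noise. Promoters came from the RefSeq table of GRCm38.p6, and motifs were matched exactly on both strands.

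The genes, lists and tests were chosen with earlier results of these data known. Values in every library are given for genes called in any tissue, the 6 with the smallest p per tissue, and Hspa5, Xbp1, Ern1, Atf6 and Atf6b in liver. Hyou1, Calr, Pdia4, Syvn1, Herpud1 and Derl3 in liver were added after their values were seen. Of the other pathway genes, those called are named.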

Additional observations from a re-analysis of the deposited data

Results flagged for a closer look

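For 3 of the 32 genes every KO library lay above every WT library in 1 tissue and below every WT library in another on the CPM scale, against 5.35% of all genes. On the TPM scale the liver groups of all 3 overlapped. Herpud1, a subunit of the HRD1 degradation complex, had a log2 fold change of 0.66 in liver and -0.39 in BAT. Sec61b, a subunit of the protein channel, had 0.39 in liver and -0.39 in brain. Atf6, a stress sensor, had 0.12 in liver and -0.18 in IAT. The interaction between genotype and tissue did not pass for Herpud1 (edgeR adjusted p = 0.103), Sec61b (edgeR adjusted p = 0.177) or Atf6 (edgeR adjusted p = 0.336), so these opposite directions are not shown to differ.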

How the results depend on the processing

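The number of the 32 genes called in liver was 0 with edgeR and also with limma-voom, RLE factors, a filter of 1 CPM in 3 libraries, a robust prior and both TPM scales. It was 3 with no low count filter (Creld2, Dnajb11 and Sdf2l1), against 218 of all 16265 genes tested. With DESeq2 it was 12, against 402 of all 12330. With all 24 libraries in 1 fit it was 4, against 98 of all 16169. It was 0 to 1 when each library was left out. With the replicate number as a block it was 3 (Dnajb11, Manf and Sdf2l1), against 228 of all 12331. Deviations of same-numbered libraries correlated at 0.22, 0.03 and -0.08 in liver, and in no tissue did all 3 pairs exceed 0.1, so the numbers were not taken to pair the samples. In IAT it was 1 (Derl3) with DESeq2 and with all 24 libraries, and 0 to 1 when each library was left out. The median log2 fold change was 0.32 to 0.51 in liver when each library was left out, -0.031 to 0.25 in IAT, 0.013 to 0.097 in BAT and 0.027 to 0.080 in brain. It was -0.22 in IAT without WT replicates 1 and 2, and -0.042 and -0.043 in BAT on the TPM scales with a pseudocount of 1 and 0.1. Genes whose KO difference varied between tissues numbered 0 to 7 when each library was left out. Over all genes, 137 were called in liver, 0 in IAT, 68 in BAT and 7 in brain. DESeq2 called 402, 987, 467 and 55 in that order of tissues, the block fit 228 in liver, 1 in BAT and 4 in brain, and limma-voom 7 in IAT and 2 in brain. No low count filter gave 218 in liver. All 24 libraries in 1 fit gave 2573 in IAT and 173 in BAT, and the TPM scales gave 29 and 28 in BAT. When each library was left out, 58 to 103 were called in liver, 0 to 1760 in IAT, 2 to 94 in BAT and 1 to 9 in brain. Directions turned for Xbp1 in liver (-0.0063 and -0.0061 on the TPM scales, and -0.10 to 0.28 when each library was left out), Dnajc10 (-0.0050 and -0.0047, and -0.029 to 0.15), Edem1 (-0.041 and -0.042, and -0.0060 to 0.082) and Derl1 (-0.0051 and -0.0052, on the TPM scales only), for Derl2 (-0.058 to 0.048 when each library was left out), and in IAT without WT replicates 1 and 2 for Hyou1 (-0.041) and Pdia4 (-0.087). The cause of these shifts was not tested. Counts of genes at an unadjusted p of 0.05 and with no overlap on other scales were added after seeing the data. Depth limits Derl3 most visibly, with 3 to 5 counts per WT library in IAT and 1 to 3 counts per library in BAT.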

Other observations

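Among the other pathway genes outside liver, none passed with edgeR in IAT (99 tested), BAT (95 tested) or brain (96 tested). At an unadjusted p of 0.05, 1 was higher and 1 lower in KO IAT, against 7.75% and 8.04% of all genes. In KO BAT 8 were higher and 5 lower, against 9.91% and 8.60%. In KO brain 3 were higher and 6 lower, against 3.43% and 3.14%. DESeq2 called 2 higher and 2 lower in BAT, against 2.36% and 1.76% of all genes. It called 0 in IAT, against 3.01% and 3.99%, and 0 in brain, against 0.188% and 0.195%. Atf4, the transcription factor of the PERK branch, had a log2 fold change of 0.87 in BAT (edgeR adjusted p = 0.138), -0.34 in brain (edgeR adjusted p = 0.532) and 0.05 in liver (edgeR adjusted p = 0.754). Dnajc25, a J domain protein of the ER membrane, had 0.69 in BAT (edgeR adjusted p = 0.0536).

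In liver, a few further genes stood out without passing. Rpn1, a ribophorin of the oligosaccharyltransferase, had a log2 fold change of 0.49 (SE 0.10, edgeR adjusted p = 0.0740), with 162, 192 and 151 CPM in KO livers, against 112, 122 and 126 CPM in WT livers. Ero1lb, the oxidase that recharges disulfide isomerases, had 0.66 (SE 0.17, edgeR adjusted p = 0.110), with 91.6, 113 and 74.0 CPM in KO livers, against 47.4, 62.1 and 67.0 CPM in WT livers. Crebrf, a regulator of the CREB3 family, was the other way, at -0.46 (SE 0.11, edgeR adjusted p = 0.103), with every KO liver below every WT liver. These genes were named after their values were seen.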
